A study of Mus musculus with 8 samples.

Results

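Transcripts of the IL-1 family and the NLRP3 inflammasome were examined in macrophages of mouse epididymal white adipose tissue (eWAT). The 10 genes were chosen by symbol, and all 10 were listed in both deposited tables, out of 17740 genes in the high-fat diet (HFD) table and 16436 in the normal diet (ND) table. They comprised the ligands Il1a, Il1b and Il18, the antagonists Il1rn and Il18bp, the receptor chains Il1r1, Il1r2 and Il1rap, the sensor Nlrp3 and the protease Casp1. Adhesion-related macrophages (ARMs) are the macrophages that stay attached to adipocytes when the digested fat pad is centrifuged, and stromal vascular fraction macrophages (SMs, labelled NARM) are those that pellet with the stromal cells. Both were sorted from wild-type mice on a chow diet (ND) or on HFD for 8 weeks from 6 weeks of age, giving 4 groups of 2 libraries. Each library was a pool of 6 mice on HFD or 10 mice on ND, and no group carried an engineered allele.

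IL-1α and IL-1β signal through IL1R1 together with the accessory chain IL1RAP. IL1RN occupies IL1R1 without signalling, and IL1R2 binds ligand as a decoy. NLRP3, a cytosolic sensor, assembles with an adaptor into a complex that activates caspase-1, which cleaves the IL-1β and IL-18 precursors, whereas the IL-1α precursor is already active. IL18BP neutralises secreted IL-18. Macrophages are a known source of these cytokines in obese fat, where they are studied for their effects on adipocyte insulin responses. Transcript levels say nothing of cleavage or secretion.

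The libraries held 14508824 to 19040133 estimated reads. All 9 macrophage markers were detected in every group, with a summed level of 14783 to 18667 CPM (counts scaled to the library size adjusted by TMM normalisation). Markers of other fat-pad cells were higher in ARMs: of the 8 fibroblast and progenitor markers 5 rose on HFD and 6 on ND, and of the 7 adipocyte markers tested 7 rose on HFD and 6 on ND. T and NK cell and B cell markers summed to at most 4.03 CPM, without Trac and Ighm, which had no values on either diet. Because RNA of the whole sorted pellet was sequenced, a change in the share of a cell type and a change in RNA per cell cannot be told apart. Nothing says that libraries of a group came from separate sorts, so the p-values measure only the spread between these pools.

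Il1a and Il1b are neighbours on the minus strand of mouse chromosome 2, at chr2:129299609-129310186 and chr2:129364569-129371164 (GRCm38, the build named mm10 in the submitters' notes), with a gap of 54382 bases between these RefSeq spans that holds no protein-coding gene in GENCODE M21. The 250 bases before their start sites are shown, with those of Il1rn and Nlrp3, because these are the ligands, the antagonist and the sensor whose levels are compared most closely. They come from RefSeq (GRCm38.p6), count from the start of the transcript given in its promoter table, which for Il1a and Il1b lies inside the longer gene span above, and are written 5′ to 3′ on the gene's strand. Capitals mark TATAAA, the AP-1 motif TGANTCA and the NF-κB motif, searched on both strands. The coordinates are chr2:129309973-129310222 for Il1a, chr2:129371140-129371389 for Il1b, chr2:24336610-24336859 for the most upstream Il1rn start and chr11:59541319-59541568 for the more upstream Nlrp3 start.
Il1a: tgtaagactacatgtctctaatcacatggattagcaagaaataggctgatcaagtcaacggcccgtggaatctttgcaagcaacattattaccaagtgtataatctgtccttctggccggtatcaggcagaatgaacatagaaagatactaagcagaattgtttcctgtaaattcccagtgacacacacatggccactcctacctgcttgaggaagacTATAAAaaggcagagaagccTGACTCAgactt
Il1b: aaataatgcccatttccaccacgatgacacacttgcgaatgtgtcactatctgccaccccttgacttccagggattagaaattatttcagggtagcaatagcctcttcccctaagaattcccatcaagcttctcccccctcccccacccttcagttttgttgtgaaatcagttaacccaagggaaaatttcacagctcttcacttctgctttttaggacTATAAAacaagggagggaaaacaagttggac
Il1rn: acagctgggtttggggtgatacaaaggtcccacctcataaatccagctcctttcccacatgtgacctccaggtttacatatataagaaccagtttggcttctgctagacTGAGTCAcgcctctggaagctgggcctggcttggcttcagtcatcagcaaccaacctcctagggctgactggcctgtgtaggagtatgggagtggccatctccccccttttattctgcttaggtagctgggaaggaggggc
Nlrp3: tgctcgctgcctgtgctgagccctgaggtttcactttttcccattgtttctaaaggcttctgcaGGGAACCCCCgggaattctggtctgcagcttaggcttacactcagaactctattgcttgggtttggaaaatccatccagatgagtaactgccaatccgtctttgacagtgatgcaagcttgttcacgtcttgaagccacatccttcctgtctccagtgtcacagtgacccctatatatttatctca

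Il1a and Il1b both held TATAAA, beginning 32 and 31 bases before the start. Il1a also held TGACTCA 12 bases before its start, and the Il1rn window shown held TGAGTCA 141 bases before its start. The Nlrp3 window shown held an NF-κB motif 186 bases before the start. The windows at the downstream Il1rn starts held no AP-1 motif, and that at the downstream Nlrp3 start held no NF-κB motif. Of the 14 windows of the genes studied, 4 held TATAAA, 2 the AP-1 motif and 2 the NF-κB motif. The other NF-κB match was in an Il1r1 window. Over all 32851 promoter windows of 300 bases, 13.6% held TATAAA, 7.81% the AP-1 motif and 8.46% the NF-κB motif. These matches describe the letters in the window and were not tied to the expression values.

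The receptor genes Il1r2 (chr1:40084692-40125230) and Il1r1 (chr1:40222480-40316201) are also neighbours, on the plus strand. The other genes were at chr2:24336860-24351491 (Il1rn), chr9:50554700-50581841 (Il18), chr7:102015074-102018232 on the minus strand (Il18bp), chr16:26581509-26730128 (Il1rap), chr11:59541569-59566955 (Nlrp3) and chr9:5298517-5307281 (Casp1).

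In order of level per length, as FPKM (reads scaled by gene length and library size), Nlrp3 was the highest of the 10 genes in HFD ARMs, HFD SMs and ND ARMs, and Il1b was second. In ND SMs the order was turned, with Il1b at 118.5 ± 4.57 FPKM and Nlrp3 at 113.8 ± 0.629 FPKM (SD, n = 2). Il1a, Il1rn and Casp1 followed in every group, at group means from 27.6 to 98.9 FPKM. Il18 stood below them at 12.4 to 13.3 FPKM, and the receptor chains and Il18bp were at 0.875 to 6.29 FPKM. Some neighbours in this order overlapped between libraries: Il1rn and Il1a in HFD SMs, Casp1 and Il1rn in ND SMs, and Il18bp with Il1rap and Il1r2 with Il1r1 in ND ARMs. The ligands for IL1R1 were thus far more abundant per length than the receptor itself in both macrophage populations.

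**Figure D1:**
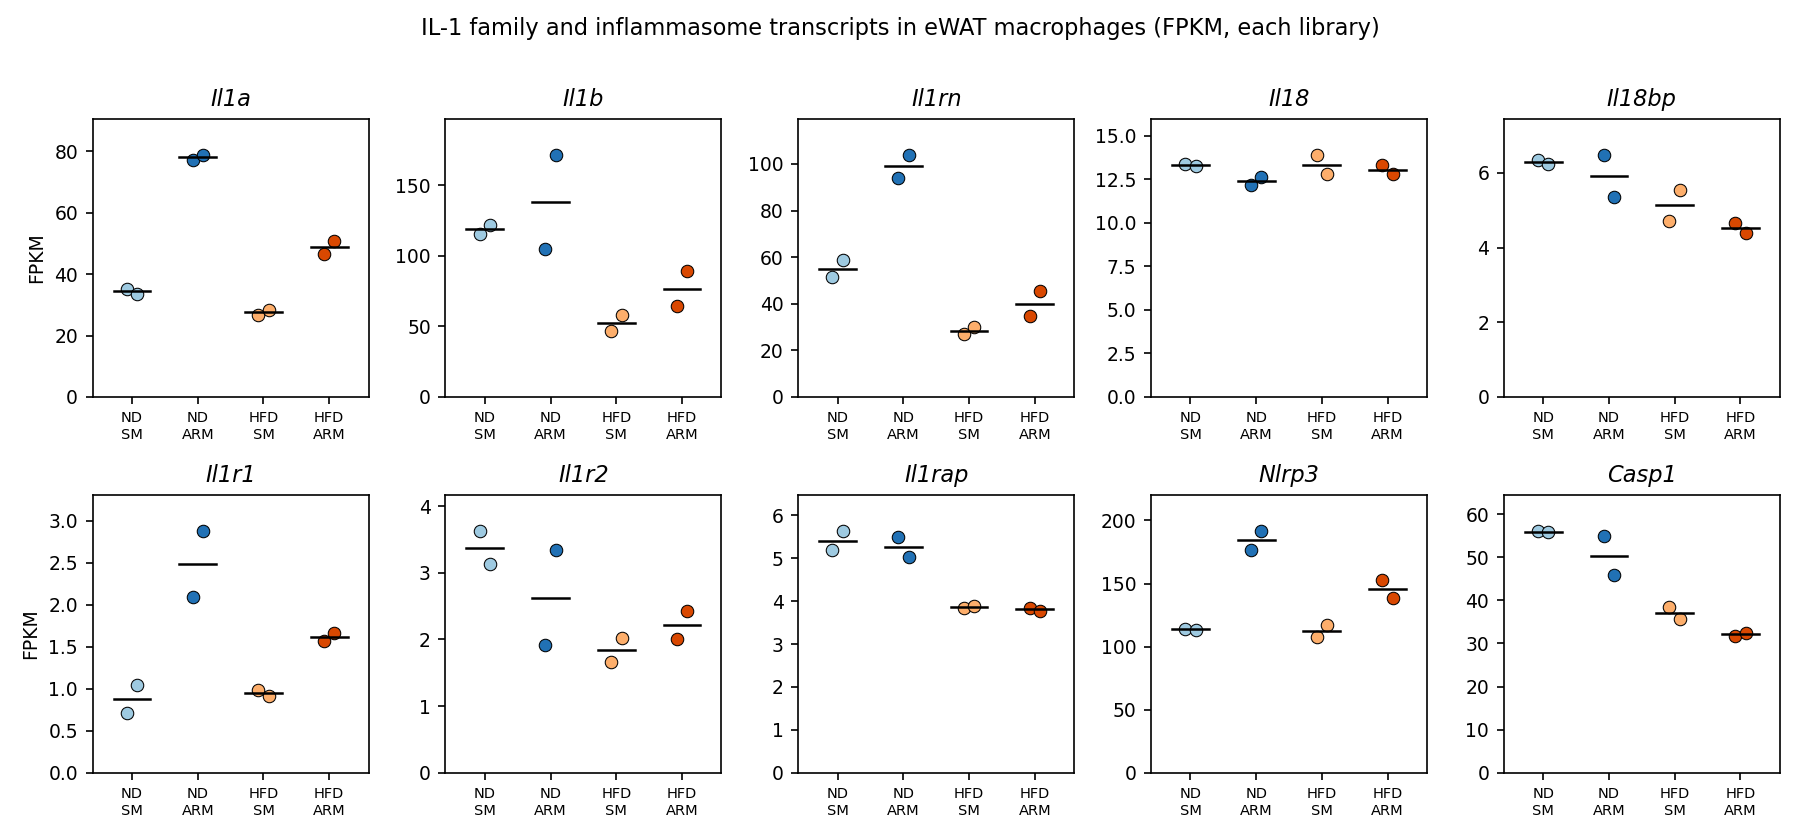
FPKM (vertical axes, from 0, with a separate scale for each gene) of the 10 genes in the 2 libraries of each group; points are libraries and bars their mean. Il1a, Il1rn, Il1r1 and Nlrp3 were higher in both ARM libraries than in both SM libraries of the same diet, while Il18 stayed between 12.2 and 13.9 FPKM.

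ARMs and SMs were compared within each diet, which asks how macrophages attached to adipocytes differ from those in the stroma. To free ARMs, the paper's method broke the floating adipocytes by vortexing with beads, a step that SMs did not undergo. Attachment to adipocytes and this handling cannot be told apart in the comparison. On ND, Il1a, Il1rn, Il1r1 and Nlrp3 rose in ARMs, and on HFD Il1a and Il1r1 rose. None of the 10 genes was called lower in ARMs on either diet by edgeR or DESeq2, and Casp1 on HFD was the only lower one with an unadjusted p under 0.05 in edgeR. A gene was called when its fold change exceeded 1.5 with an adjusted p below 0.05 (edgeR quasi-likelihood test, Benjamini-Hochberg over all genes tested). The 4 of 10 genes called higher on ND stand beside 3.55% of all 12441 genes tested, and the 2 of 10 on HFD beside 4.46% of 13337. The backgrounds for a call lower in ARMs were 0.129% on ND and 0.292% on HFD. By the adjusted p at any fold, 4 of the 10 genes were higher on ND, against 4.28% of all genes, and 5 on HFD, against 6.53%, with 0 lower on either diet (backgrounds 0.458% and 3.02%). The HFD count of 5 was 1 without HFD ARM replicate 2, 3 without HFD ARM replicate 1, 3 with DESeq2 or all 8 libraries in 1 fit, 2 with limma on log2(FPKM + 1) and 1 with no filter. The median log2 fold change of the 10 genes was 0.09 on ND and 0.31 on HFD, against −0.02 and −0.01 for all genes tested.

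Il1a, which encodes IL-1α, differed most firmly among the ligands. On ND it was at 77.2 and 78.9 FPKM in ARMs and at 35.3 and 33.7 FPKM in SMs. On HFD it was at 46.6 and 51.0 FPKM in ARMs and at 26.8 and 28.5 FPKM in SMs. On both diets each ARM library lay well above both SM libraries. The fold change was 2.27 on ND (log2 1.18 ± 0.10 SE, edgeR adjusted p = 1.6e-05) and 1.75 on HFD (log2 0.80 ± 0.07 SE, edgeR adjusted p = 0.000114).

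Il1b, the neighbouring gene for IL-1β, did not pass the call on either diet. On ND it was at 104.9 and 171.3 FPKM in ARMs and at 115.3 and 121.8 FPKM in SMs. The ND ARM libraries thus lay on either side of the SM libraries, and the log2 fold change of 0.21 ± 0.16 (SE, edgeR adjusted p = 0.635) became −0.20 without ND ARM replicate 2 and 0.53 without ND ARM replicate 1. The HFD libraries were at 64.1 and 88.9 FPKM in ARMs and at 46.7 and 57.9 FPKM in SMs. Here the groups did not overlap, and the fold change of 1.43 passed the adjusted p (edgeR, 0.0419) but was under 1.5. With HFD ARM replicate 1 or HFD SM replicate 2 left out Il1b was called (log2 0.73 and 0.68, edgeR adjusted p = 0.0329 and 0.00365). It no longer passed the adjusted p without HFD ARM replicate 2 (log2 0.28, edgeR, 0.412), without HFD SM replicate 1 (edgeR, 0.0522), with DESeq2 (0.368), with no filter (edgeR, 0.261) or with all 8 libraries in 1 fit (edgeR, 0.158), and over all alternatives the adjusted p ran from 0.00147 to 0.412. GENCODE M21 places the antisense gene Il1bos across Il1b, and other RNA genes on the opposite strand across Il1a, Il1r2 and Il1rap; whether strand was used in counting is not given in the sources used here, so their reads cannot be told apart.

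Neutrophils also make IL-1β. The study gated adipose macrophages as positive for CD45, CD11b and F4/80, which should leave out neutrophils, and the neutrophil markers were read beside Il1b. Their summed level was 505 and 852 CPM in ND ARMs and 556 and 748 CPM in ND SMs, so replicate 2 was the higher library in both, as it was for Il1b. The sum was led by Mmp9 in every ND library. S100a8, a defining neutrophil marker, was at 0.428 and 2.22 CPM in ND ARMs and at 3.84 and 2.83 CPM in ND SMs, whereas Il1b was at 129 to 214 CPM in those 4 libraries. S100a9, a partner of S100a8, was the only one of the 6 neutrophil markers tested on ND that was called, and it fell in ARMs (0.372-fold, edgeR adjusted p = 0.0119). On HFD the sums were 229 to 281 CPM in ARMs and 217 to 235 CPM in SMs. None of the 5 markers tested on HFD was called by edgeR, and all 5 estimates were above 0, with S100a8 at 1.70-fold and S100a9 at 1.83-fold (edgeR adjusted p = 0.268 and 0.0677). The part of these cells in the Il1b values was not tested.

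Il18, the ligand that is cleaved by caspase-1 like IL-1β, showed no difference past the test. It was at 12.2 and 12.6 FPKM in ND ARMs, 13.4 and 13.2 FPKM in ND SMs, 13.3 and 12.8 FPKM in HFD ARMs, and 13.9 and 12.8 FPKM in HFD SMs. The log2 fold change was −0.12 ± 0.15 (SE, edgeR adjusted p = 0.816) on ND and −0.06 ± 0.11 (SE, edgeR adjusted p = 0.803) on HFD. A p above the threshold does not show that the levels were alike. The protein-coding genes Bco2 and Tex12 overlap the span of Il18 on the opposite strand in GENCODE M21.

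Il1rn, the gene for the IL-1 receptor antagonist, rose in ARMs on ND. It was at 94.0 and 103.8 FPKM in ND ARMs and at 51.4 and 58.7 FPKM in ND SMs, a fold change of 1.80 (log2 0.85 ± 0.10 SE, edgeR adjusted p = 0.000238). HFD levels were 34.6 and 45.4 FPKM in ARMs and at 26.9 and 30.1 FPKM in SMs. Both HFD ARM libraries were again above both SM libraries, but the fold change of 1.38 was under 1.5 (log2 0.46 ± 0.11 SE, edgeR adjusted p = 0.0271). Without HFD ARM replicate 1 the HFD log2 fold change was 0.63 and the gene was called (edgeR adjusted p = 0.0225), but without HFD ARM replicate 2 it was 0.27 and did not pass (edgeR adjusted p = 0.288). The antagonist and Il1a were therefore both higher in ARMs than in SMs in the same libraries.

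Il18bp, which encodes the IL-18 binding protein, was at 6.48 and 5.36 FPKM in ND ARMs and 6.35 and 6.23 FPKM in ND SMs. HFD levels were 4.66 and 4.39 FPKM in ARMs and 4.72 and 5.55 FPKM in SMs. Neither difference passed the test (edgeR adjusted p = 0.959 on ND and 0.447 on HFD). Its 3′ end overlaps that of Numa1 on the opposite strand by 80 bases in GENCODE M21.

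Il1r1, the signalling receptor, had the largest fold change of the 10 genes on ND, at a low level. It was at 2.09 and 2.88 FPKM in ND ARMs and at 0.71 and 1.04 FPKM in ND SMs, from 151 and 188 reads against 48 and 73. The fold change was 2.82 (log2 1.5 ± 0.23 SE, edgeR adjusted p = 0.00114). On HFD it was at 1.57 and 1.66 FPKM in ARMs and at 0.98 and 0.91 FPKM in SMs, with a fold change of 1.69 (log2 0.75 ± 0.15 SE, edgeR adjusted p = 0.0135). The groups did not overlap on either diet. The HFD call was lost with HFD ARM replicate 1 or replicate 2 left out (edgeR adjusted p = 0.102 and 0.132) and with DESeq2 (adjusted p = 0.0701), while the fold change was nearly the same in these 3 fits.

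IL1R1 is also abundant on fibroblasts and endothelial cells, which lack CD45 and which a gate for CD45, CD11b and F4/80 should leave out, and their markers were set beside it. The fibroblast and progenitor markers summed to 638 and 918 CPM in ND ARMs and 228 and 290 CPM in ND SMs, and to 532 and 677 CPM in HFD ARMs and 405 and 365 CPM in HFD SMs. The order of the 4 libraries on ND was the same as for Il1r1, as it also was for the endothelial, adipocyte and mesothelial lists. Il1r1 was at 9.22 and 13.1 CPM in ND ARMs and 3.24 and 4.59 CPM in ND SMs. The log2 fold changes of the 8 fibroblast and progenitor markers ran from 0.63 (Dpp4) to 1.90 (Col1a1) on ND and from −0.44 (Pi16) to 0.71 (Col1a1) on HFD. Their medians were 1.48 and 0.65. The endothelial markers summed to 36 and 72 CPM in ND ARMs, 27 and 33 CPM in ND SMs, 138 and 131 CPM in HFD ARMs, and 57 and 41 CPM in HFD SMs. No marker of either list was at 0. The part of these cells in the Il1r1 values was not tested.

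**Figure D2:**
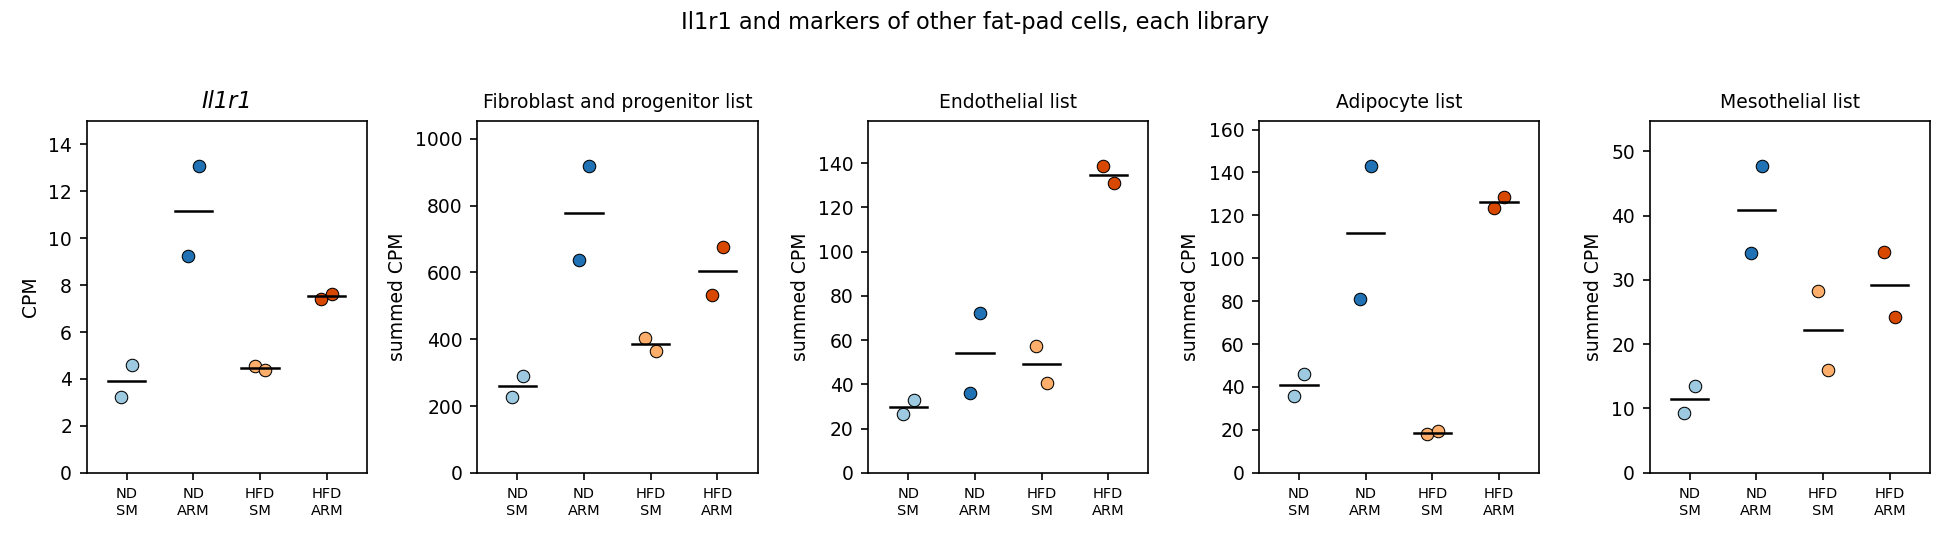
CPM of Il1r1 and summed CPM of 4 marker lists (vertical axes, from 0) in the 2 libraries of each group; points are libraries and bars their mean. Il1r1 and the fibroblast and progenitor list were both higher in both ARM libraries than in both SM libraries on each diet, with the highest mean in ND ARMs, where the fibroblast list's libraries (638 and 918 CPM) overlapped those of HFD ARMs (532 and 677 CPM). The endothelial and adipocyte lists were also higher in both ARM libraries than in both SM libraries on each diet, and the endothelial list was highest in HFD ARMs.

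Il1r2, the decoy receptor, and Il1rap, the accessory chain, showed no difference past the test. Il1r2 was at 1.91 and 3.35 FPKM in ND ARMs, 3.63 and 3.13 FPKM in ND SMs, 2.0 and 2.43 FPKM in HFD ARMs, and 1.66 and 2.02 FPKM in HFD SMs. The ND estimate for Il1r2 rested on 1 library: it was log2 −0.32 ± 0.30 (SE, edgeR adjusted p = 0.721), but −0.83 without ND ARM replicate 2 and 0.08 without ND ARM replicate 1. Il1rap was at 5.49 and 5.04 FPKM in ND ARMs, 5.19 and 5.64 FPKM in ND SMs, 3.85 and 3.77 FPKM in HFD ARMs, and 3.85 and 3.90 FPKM in HFD SMs. Its log2 fold change was −0.04 on both diets (edgeR adjusted p = 0.942 on ND and 0.869 on HFD).

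Nlrp3, the inflammasome sensor, rose in ARMs on ND. It was at 177.0 and 191.8 FPKM in ND ARMs and at 114.2 and 113.3 FPKM in ND SMs, a fold change of 1.62 (log2 0.70 ± 0.10 SE, edgeR adjusted p = 0.00055). HFD levels were 152.8 and 138.6 FPKM in ARMs and at 107.4 and 117.3 FPKM in SMs. The HFD groups did not overlap, and the fold change of 1.27 passed the adjusted p (log2 0.35 ± 0.07 SE, edgeR, 0.016) but was under 1.5, and it no longer passed without HFD ARM replicate 1 or replicate 2 (edgeR, 0.198 and 0.0671). Nlrp3 and Il1b are inducible genes, and immediate-early genes, which tissue digestion is known to raise, were read beside them. Their summed level was lower in ARMs than in SMs on both diets, at 14221 and 15640 CPM against 16563 and 16932 CPM on ND and at 17086 and 18013 CPM against 20352 and 19880 CPM on HFD. By gene, the log2 estimates were negative on both diets, except for Nr4a1 on ND (1.04-fold) and Dusp1 on HFD (1.13-fold). Fos, Jun and Ier2 passed the adjusted p in edgeR on both diets. Junb and Atf3 passed it on HFD only, and on ND they were at 0.999-fold and 0.972-fold. The part of the immediate-early genes in the Nlrp3 and Il1b values was not tested.

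Casp1, the protease downstream of NLRP3, leaned the other way. On HFD it was at 31.7 and 32.5 FPKM in ARMs and at 38.4 and 35.7 FPKM in SMs, so the groups did not overlap, with a log2 fold change of −0.24 ± 0.07 (SE, edgeR adjusted p = 0.0613). On ND it was at 54.8 and 46.0 FPKM in ARMs and at 56.1 and 55.8 FPKM in SMs (log2 −0.15 ± 0.11 SE, edgeR adjusted p = 0.593). Neither difference passed the test, though without HFD SM replicate 2 the HFD value passed the adjusted p at a fold under 1.5 (log2 −0.29, edgeR, 0.0316).

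**Figure D3:**
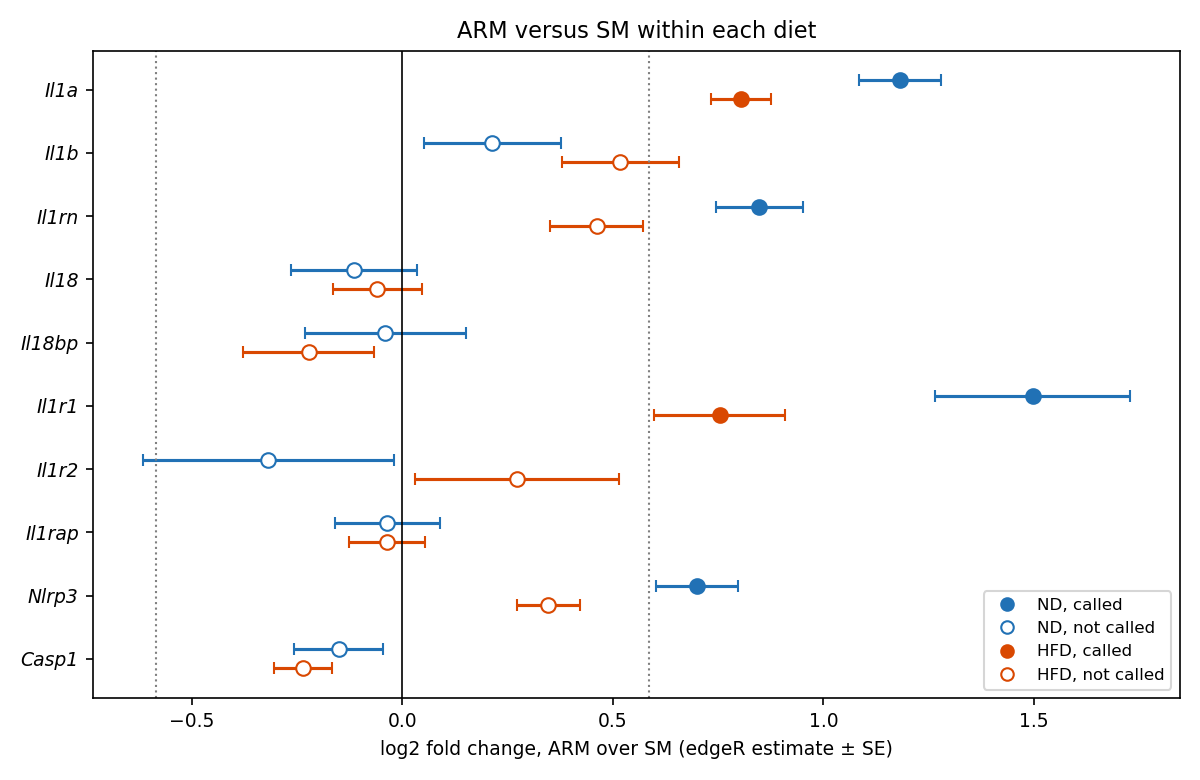
log2 fold change of ARMs over SMs (horizontal axis, edgeR estimate with its SE as bars) for the 10 genes on ND (blue) and HFD (orange); filled points were called and dotted lines mark a fold change of 1.5. Il1a and Il1r1 were called on both diets, and Il1rn and Nlrp3 on ND, where their fold changes were 1.80 and 1.62.

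Whether the fold change of ARMs over SMs differed between ND and HFD was tested as an interaction over the 8 libraries. None of the 10 genes passed (edgeR and DESeq2 each gave 0), beside 0.165% of all 13358 genes tested, and 4 had an unadjusted p under 0.05 in edgeR, beside 7.61% of all genes. The log2 difference, HFD less ND, was −0.40 ± 0.11 for Il1a (SE, edgeR adjusted p = 0.247), −0.37 ± 0.12 for Nlrp3 (SE, edgeR adjusted p = 0.346), −0.40 ± 0.16 for Il1rn (SE, edgeR adjusted p = 0.551) and −0.76 ± 0.29 for Il1r1 (SE, edgeR adjusted p = 0.515). All 4 estimates were negative, and that of Il1b was 0.29 ± 0.27 (SE, edgeR adjusted p = 0.910). The calls of Il1rn and Nlrp3 on ND and not on HFD are therefore not shown to differ between the diets.

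Levels between the diets are given as values without a test, because each diet has its own table and diet and table cannot be told apart. In ARMs, 8 of the 10 genes had both HFD libraries below both ND libraries in FPKM, against 43.2% of all 13358 genes, and in SMs 7 of 10, against 46.4%. The median log2 ratio of HFD over ND was −0.54 for the 10 genes in ARMs and −0.40 in SMs, while that of all genes was −0.10 and −0.12. On the CPM scale the all-gene medians were 0.00 and 0.02 and those of the 10 genes −0.46 and −0.28. Gene lengths implied by FPKM, HFD over ND, were 0.933 to 1.06 for the 10 genes.

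Among the genes lower on HFD, Il1rn, the antagonist, and Il1b, its competitor for the receptor, stood furthest apart between the diets. Il1rn was 2.47-fold higher on ND than on HFD in ARMs (98.9 ± 6.96 against 40.0 ± 7.59 FPKM, SD, n = 2) and 1.93-fold higher in SMs (55.0 ± 5.16 against 28.5 ± 2.27 FPKM). Il1b was 1.80-fold higher on ND in ARMs (138.1 ± 47.0 against 76.5 ± 17.6 FPKM) and 2.27-fold higher in SMs (118.5 ± 4.57 against 52.3 ± 7.93 FPKM). Casp1 was 1.57-fold and 1.51-fold higher on ND in ARMs and SMs, Il1rap 1.38-fold and 1.40-fold, Il18bp 1.31-fold and 1.22-fold, and Il1a 1.60-fold and 1.25-fold. Both populations therefore held lower levels of these 6 genes in the HFD table.

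Il1r1, Nlrp3, Il1r2 and Il18 were not lower on HFD in both populations. Il1r1 was 1.54-fold higher on ND in ARMs, but its SM libraries overlapped between the diets. Nlrp3 was 1.27-fold higher on ND in ARMs, while in SMs it was at 112.4 ± 6.99 FPKM on HFD and 113.8 ± 0.629 FPKM on ND, a log2 ratio of −0.02 that was 0.10 on the CPM scale. Il1r2 overlapped between the diets in ARMs and was 1.84-fold higher on ND in SMs. Il18 did not separate the diets in SMs, and in ARMs both HFD libraries were slightly above both ND libraries. The monocyte markers, led by Ccr2, also differed between the tables, at 106 to 134 CPM on HFD and 242 to 273 CPM on ND. The summed neutrophil markers were at 217 to 281 CPM on HFD and 505 to 852 CPM on ND. Most of that gap was Mmp9, at 98.9 to 150 CPM on HFD and 420 to 738 CPM on ND. Retnlg, at a low level, was also higher in every ND library. Csf3r and Cxcr2 went the other way, with Csf3r at 103 to 117 CPM on HFD and 64.9 to 102 CPM on ND. S100a8, S100a9, Camp and Ltf overlapped between the diets in ARMs, and Camp also did in SMs. In SMs S100a8 was at 0.689 and 0.639 CPM on HFD and 3.84 and 2.83 CPM on ND. S100a9 in SMs was at 1.91 and 1.70 CPM on HFD and 14.2 and 10.6 CPM on ND. Ltf in SMs was at 0 CPM in both HFD libraries and at 4.38 and 0.315 CPM on ND. The neutrophil markers therefore did not all differ in the same direction between the diets. The part of monocytes and neutrophils in the diet values was not tested.

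Ratios of FPKM values within a library, chosen after the values were seen and given without a test, show how the balance of ligand and antagonist differed. Il1rn over Il1b was 0.896 and 0.606 in ND ARMs, 0.446 and 0.482 in ND SMs, 0.540 and 0.510 in HFD ARMs, and 0.575 and 0.519 in HFD SMs. The antagonist transcript was thus below that of Il1b in every library, and the ND ARM libraries were the highest of the 8. Il1rn over the sum of Il1a and Il1b was 0.516 and 0.415 in ND ARMs and 0.341 and 0.377 in ND SMs. On HFD it was 0.313 and 0.324 in ARMs and 0.366 and 0.348 in SMs. Against both ligands, ARMs thus lay above SMs on ND and below them on HFD. Il1a over Il1b was 0.736 and 0.460 in ND ARMs, 0.306 and 0.276 in ND SMs, 0.727 and 0.573 in HFD ARMs, and 0.574 and 0.492 in HFD SMs. The decoy over the signalling receptor, Il1r2 over Il1r1, was 5.11 and 3.01 in ND SMs and 0.914 and 1.16 in ND ARMs, and it was 1.69 and 2.22 in HFD SMs and 1.27 and 1.46 in HFD ARMs. On both diets each SM library lay above both ARM libraries in this last ratio, from counts of 38 to 188 reads per gene.

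**Figure D4:**
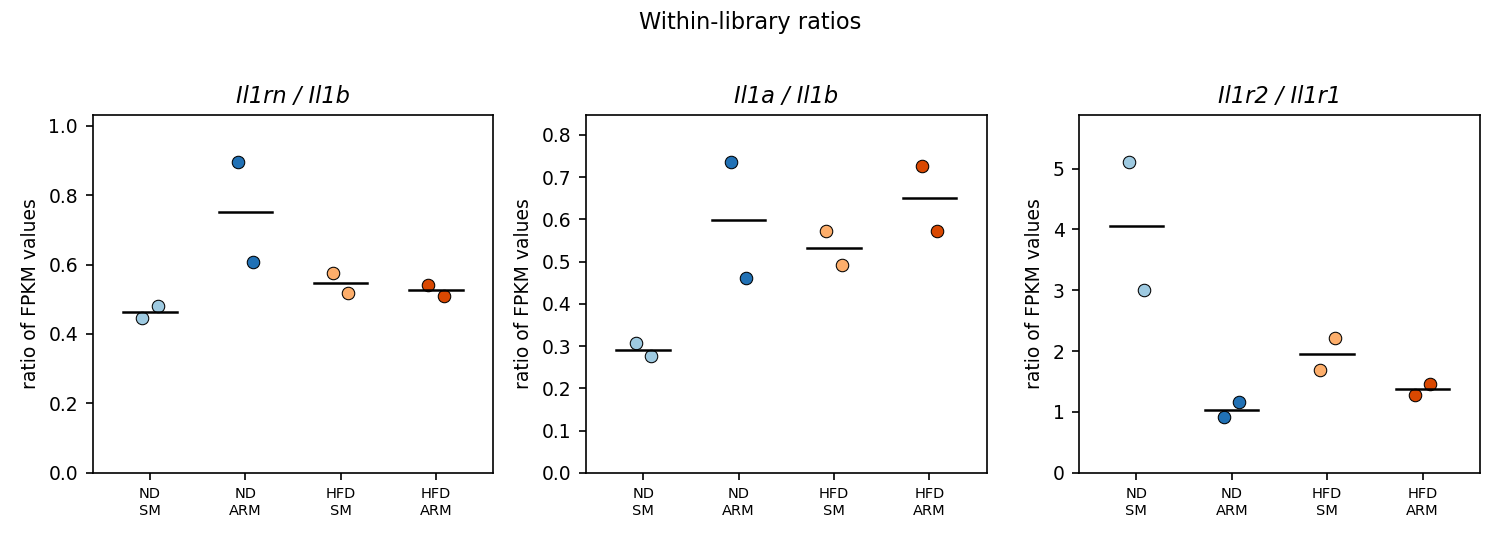
Ratios of FPKM values within each library (vertical axes, from 0) for Il1rn over Il1b, Il1a over Il1b, and Il1r2 over Il1r1; points are libraries and bars their mean in each of the 4 groups. ND ARMs had the highest Il1rn over Il1b (0.606 and 0.896) and ND SMs the highest Il1r2 over Il1r1 (3.01 and 5.11).

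A list of 49 other genes of the pathway was read beside the 10. Of these, 43 were tested. In ARMs 1 was called higher on HFD and 0 on ND, beside 4.46% and 3.55% of all genes tested. None was called lower, beside 0.292% and 0.129%. With DESeq2 0 were called on either diet, and 10 on HFD and 8 on ND had an unadjusted p under 0.05 in edgeR, beside 23.2% and 14.9% of all genes tested. Their median log2 fold change was −0.02 on HFD and −0.01 on ND, close to that of all genes. In the difference between diets 0 of the 43 were called by edgeR or DESeq2, and 4 had an unadjusted p under 0.05 in edgeR. Of all genes tested there in edgeR, 0.165% were called and 7.61% had an unadjusted p under 0.05.

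The called gene was Il18r1, the ligand-binding chain of the IL-18 receptor. It was at 1.71 and 1.99 FPKM in HFD ARMs and 1.30 and 0.98 FPKM in HFD SMs (log2 0.72 ± 0.18 SE, edgeR adjusted p = 0.0342), and this call was lost with DESeq2 and without HFD ARM replicate 1, HFD ARM replicate 2 or HFD SM replicate 2. On ND Il18r1 was at 1.05 and 0.82 FPKM in ARMs and 0.53 and 0.87 FPKM in SMs, where the groups overlapped. The other 4 receptors were not called on either diet. Il1rl1, the IL-33 receptor, was at 10.4 to 16.3 FPKM over the 8 libraries and Il1rl2, the IL-36 receptor, at 2.53 to 3.83 FPKM. Il33, an alarmin of stromal cells and the only other ligand with a value in these tables, was at 0.41 to 1.18 FPKM in ARMs and 0.17 to 0.45 FPKM in SMs, with log2 fold changes of 1.17 on ND and 1.16 on HFD that did not pass (edgeR adjusted p = 0.102 and 0.111).

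None of the 12 sensor and adaptor genes tested besides Nlrp3 was called on either diet by edgeR or DESeq2 (4 on HFD and 1 on ND with an unadjusted p under 0.05 in edgeR, beside the 23.2% and 14.9% of all genes). Nek7, a kinase that binds NLRP3, was at 29.8 to 47.0 FPKM, and Aim2, a sensor of cytosolic DNA, at 22.1 to 28.3 FPKM. Pycard, the adaptor that joins NLRP3 to caspase-1, was at 11.8 to 12.1 FPKM on HFD and 14.7 to 20.7 FPKM on ND. Nlrp3 was therefore the highest of these genes in every library. None of the 7 caspases, pore formers and channels was called by either tool, and 1 on each diet had an unadjusted p under 0.05 in edgeR (the same backgrounds apply). Casp4, the caspase of the non-canonical inflammasome, was at 132.8 to 165.7 FPKM. Ninj1, which acts in the rupture of the dying cell's membrane, was at 374.8 and 339.2 FPKM in HFD ARMs and 439.4 and 436.1 FPKM in HFD SMs, lower by the adjusted p but under 1.5-fold (log2 −0.32 ± 0.07 SE, edgeR adjusted p = 0.0161).

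None of the 18 signalling genes below the receptors was called by either tool, and 3 on HFD and 5 on ND had an unadjusted p under 0.05 in edgeR, where 23.2% and 14.9% of all genes did. Nfkbia, the NF-κB inhibitor that NF-κB itself induces, was at 1074 and 1075 FPKM in HFD ARMs and 927 and 895 FPKM in HFD SMs (log2 0.21 ± 0.06 SE, edgeR adjusted p = 0.0487). On ND it was at 678 and 738 FPKM in ARMs and 642 and 615 FPKM in SMs (edgeR adjusted p = 0.487). Rela, an NF-κB subunit, was at 97.4 and 110.1 FPKM in ND ARMs and 78.3 and 82.9 FPKM in ND SMs (log2 0.38 ± 0.10 SE, edgeR adjusted p = 0.0479). Irak2, a kinase of the IL-1 receptor complex named here after its values were seen, was at 28.5 and 28.6 FPKM in HFD ARMs and 23.2 and 23.4 FPKM in HFD SMs (log2 0.26 ± 0.06 SE, edgeR adjusted p = 0.0273). These 3 genes passed the adjusted p on 1 diet each, at fold changes under 1.5.

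The genes whose profile over the 8 libraries was most like that of Il1b and Nlrp3 were found among 8305 genes of at least 10 CPM, after each diet's mean had been taken out. The measure was the root mean square difference in log2 CPM. For Il1b these were Cytip at 0.047, then Prdm1, Itgal, Chst11 and Rin3 at up to 0.11. For Nlrp3 they were Itga5 at 0.037, then Ell2, Atg2a, Zswim4 and the chemokine gene Cxcl2 at up to 0.07. The SD of the references' own values was 0.30 for Il1b and 0.28 for Nlrp3, and the points share libraries and depth.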

How the data were processed

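ARMs and SMs were sorted from digested eWAT by flow cytometry, and RNA of 2 pooled libraries for each of the 4 groups was sequenced. For each diet the authors deposited 1 table of estimated counts, FPKM and TPM per gene and library (build mm10 per the labels). The aligner, counter and strand setting are not given in the sources used here. Estimated counts were not whole for 32.3% to 32.9% of HFD genes and 8.55% to 9.36% of ND genes, so the tables may have been made differently. Counts were rounded and fitted per diet over all genes with edgeR 4.0.16 in R 4.3.3 (TMM, filterByExpr, quasi-likelihood test, Benjamini-Hochberg). The biological coefficient of variation was 5.55% on HFD and 8.61% on ND. With 2 libraries against 2 an exact permutation test cannot give a two-sided p under 0.333. DESeq2 1.42.0, limma 3.58.1 on log2(FPKM + 1) and log2(FPKM + 0.1), other scalings, filters, a replicate block and each library left out were alternatives. The fits were tested on simulated data. The genes, lists and rules were chosen with earlier results of these data known. All 10 genes were named, with the pathway genes called and, in roles with fewer than 2 called, the 2 highest by mean FPKM. Pycard and Irak2 were named outside this rule. Immediate-early genes and marker lists of monocytes, dendritic cells, mesothelial, mast and the other cells named were also fixed. Positions came from RefSeq. Figures were drawn with matplotlib.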

Additional observations from a re-analysis of the deposited data

How the results depend on the processing

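On HFD, the number of the 10 genes called higher in ARMs was 2 as reported and 1 with DESeq2, with no filter on low counts, with all 8 libraries in 1 fit and with limma on log2(FPKM + 1) or log2(FPKM + 0.1), and 0 with limma on log2(FPKM + 1) without a filter. With each library left out in turn it was 1 to 3: Il1a only without HFD ARM replicate 2, and Il1a with Il1b and Il1rn without HFD ARM replicate 1. On ND, 4 were called under every alternative except limma on log2(FPKM + 1) without a filter, which gave 0 and called no gene at all. Il1r1 on HFD lost its call in 8 of 15 alternatives, at log2 0.43 to 0.79.

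Of values not called in the comparisons, several changed sign with a library left out: Il18 on HFD (log2 −0.11 to 0.00212), and on ND Il1b (−0.20 to 0.53), Il18bp (−0.19 to 0.0889), Il1r2 (−0.83 to 0.0772) and Il1rap (−0.10 to 0.0337). In the difference between diets these were Il18 (−0.0136 to 0.12), Casp1 (−0.20 to 0.0635) and Il1rap (−0.0705 to 0.0823). For Il1rap it was also positive with library totals (0.0323), upper-quartile factors (0.00853), no filter (0.00689), a minimum of 10 counts per library (0.00457) and limma (0.0148). The diet ratio of Nlrp3 in SMs was 0.10 on the CPM scale. The causes were not tested.

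Replicate numbers are shared by the groups, but same-numbered libraries deviated together only with r = 0.279 on ND and 0.0175 on HFD over 2 pairs each, so they were not taken as pairs. With the replicate block, 2 genes on HFD and 4 on ND were called, and they were the same genes. Over all genes the block gave 719 higher and 67 lower on ND, against 442 and 16, and 38 and 97 in the difference between diets, against 9 and 13. Over all genes on HFD, 595 were higher and 39 lower as reported, 167 and 14 without a filter, 319 and 12 with limma on log2(FPKM + 1), 922 and 95 at the methods' threshold of log2 0.6 and an unadjusted p, and 198 and 16 without HFD ARM replicate 2. On ND, DESeq2 gave 273 and 7, limma on log2(FPKM + 1) 202 and 12, the methods' threshold 794 and 94, and leaving out ND ARM replicate 2 171 and 17. With 2 pools per group and 38 to 64 reads for Il1r2, differences in the rarer receptors were hard to detect.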

Other observations

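Of the marker lists not described above, the dendritic cell markers summed to 124 CPM in both HFD ARM libraries and 165 and 171 CPM in HFD SMs, and to 135 to 148 CPM in ND ARMs and 163 to 165 CPM in ND SMs. The mesothelial markers summed to 34.2 and 47.6 CPM in ND ARMs and 9.37 and 13.5 CPM in ND SMs, with 5 of 6 called higher, and to 24.2 to 34.3 CPM in HFD ARMs and 16.0 to 28.3 CPM in HFD SMs. The mast cell markers summed to at most 6.67 CPM in any library, with 1 of 4 called on HFD.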
